A study of Homo sapiens with 8 samples.

Results

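The 10 genes described here encode the integrin subunits usual in epithelial cells: 5 alpha subunits (ITGA2, ITGA3, ITGA5, ITGA6 and ITGAV) and 5 beta subunits (ITGB1, ITGB4, ITGB5, ITGB6 and ITGB8). They were taken by the transcript accession of each array probe, from 20296 genes named in all, and each gene was read from its brightest probe. The cells were MCF10A, a non-tumorigenic human mammary epithelial line, with p53 (p53+/+) or lacking it (p53-/-). Each genotype was harvested untreated (0 h) and 12, 24 and 48 h after exposure to the DNA-damaging drug doxorubicin (adriamycin, ADR). The sample labels give a dose of 0.5 µg/ml, applied for 2 h. The methods of the study state a higher concentration, and the difference could not be settled here. There was 1 single-colour array for each genotype and time, 8 in all, so no level has a replicate error. The sources used here do not say how the p53-/- derivative was made or whether it is 1 clone. All 8 samples were of the same line, and the labels give no other allele or agent.

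Integrins are receptors of 1 alpha and 1 beta chain that span the plasma membrane and hold cells to the extracellular matrix. In stratified and glandular epithelium, ITGA6 pairs with ITGB4 in hemidesmosomes, which anchor basal cells to laminin, and ITGA3 pairs with ITGB1 as another laminin receptor. ITGA5 with ITGB1 binds fibronectin, ITGA2 with ITGB1 binds collagen, and ITGAV pairs with ITGB5, ITGB6 or ITGB8 to bind vitronectin, fibronectin or the latent form of TGF-beta. All values below are levels of mRNA, not of receptors on the cell surface.

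A level is the log2 processed signal of a probe minus the log2 75th percentile of its array, so 0 is the brightness of that percentile. Levels of different probes are not comparable, and only differences within a probe are read. Precision is limited by the small number of arrays. Of the 10 members, 9 were well above background on all 8 arrays. The ITGA2 probe was not well above background on any array, and no difference is given for it. The technical SD of a difference between 2 arrays lay between 0.027 and 0.19 on the log2 scale for the 9 members, judged by the scatter of 999 probes that each array carries in 10 spots. It covers the spots of an array and not the culture or the labelling.

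Some arrays stood apart before any integrin was read. CDKN1A, a p53 target that encodes the cell cycle inhibitor p21, read 2.54 to 2.70 in treated p53+/+ cells and -0.96 to -0.48 in treated p53-/- cells. The array labelled p53+/+ 0 h read -1.14 and the p53-/- 0 h array -2.97. The pair of 0 h arrays differed at least 2-fold on 10.1% of 28947 probes, against 20.6%, 24.9% and 29.8% for the treated pairs at 12, 24 and 48 h. The array labelled p53+/+ 0 h thus lay closer to its p53-/- counterpart than the treated arrays did to theirs, and its label is in doubt. Values that start from that array are named as such, and the genotypes were compared on the 6 treated arrays. Whether a difference between treated genotypes was there before ADR cannot be told apart from a difference in response. The p53+/+ 48 h array had 0 of 10 spike-in probes well above background, where the other 7 arrays had 6 each. All 8 arrays lay on 1 slide with a column for each genotype, so genotype and position cannot be told apart.

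After ADR, p53+/+ cells carried more mRNA of both hemidesmosome chains, ITGA6 and ITGB4, and of ITGB6 than p53-/- cells, and less of the fibronectin receptor chain ITGA5. The differences on the log2 scale, averaged over 12, 24 and 48 h, were 1.01 for ITGA6, 1.90 for ITGB4, 2.33 for ITGB6 and -1.21 for ITGA5. These 4 of the 9 members measured passed an adjusted p of 0.05 in limma's moderated test over all 28947 probes. Of the 9, 3 were higher in p53+/+ cells, beside 10.6% of all probes tested, and 1 was lower, beside 7.4%. The median difference of the 9 members was 0.67, against 0.09 for all probes. The test treats the 3 time points of a genotype as its replicates, and its p sets a difference between genotypes against the movement over time. In RNA of whole cultures, fewer cells of a type and less RNA per cell cannot be told apart.

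The arrays of treated p53+/+ cells were dimmer as a whole, with a 75th percentile of 661 to 818 in processed signal against 1118 to 1199 for treated p53-/- cells, and the split of all calls moved with the scaling. Of the probes called, 58.8% of 5201 were higher in p53+/+ cells with the 75th percentile, 48.3% with quantile normalization, 45.7% with the array median, 73.3% with normexp background correction, and 14.5% with no scaling. The median of all probes differed between treated genotypes by 0.13, -0.02 and 0.18 at 12, 24 and 48 h with the 75th percentile, and by -0.32, -0.50 and -0.67 with no scaling. ITGA5, ITGA6, ITGB4 and ITGB6 kept their direction under each of these scalings. With no scaling ITGA6 no longer passed, at a difference of 0.41 and a limma adjusted p of 0.143, and ITGB5 passed as lower. Leaving out the 24 h arrays left 0 of the 4 called (3 members had an unadjusted limma p under 0.05), and leaving out the 12 h or 48 h arrays left 2 (ITGB4 and ITGB6) and 1 (ITGB6). The fit without the p53+/+ 48 h array called 3 members, ITGA6, ITGB4 and ITGB6.

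**Figure D1:**
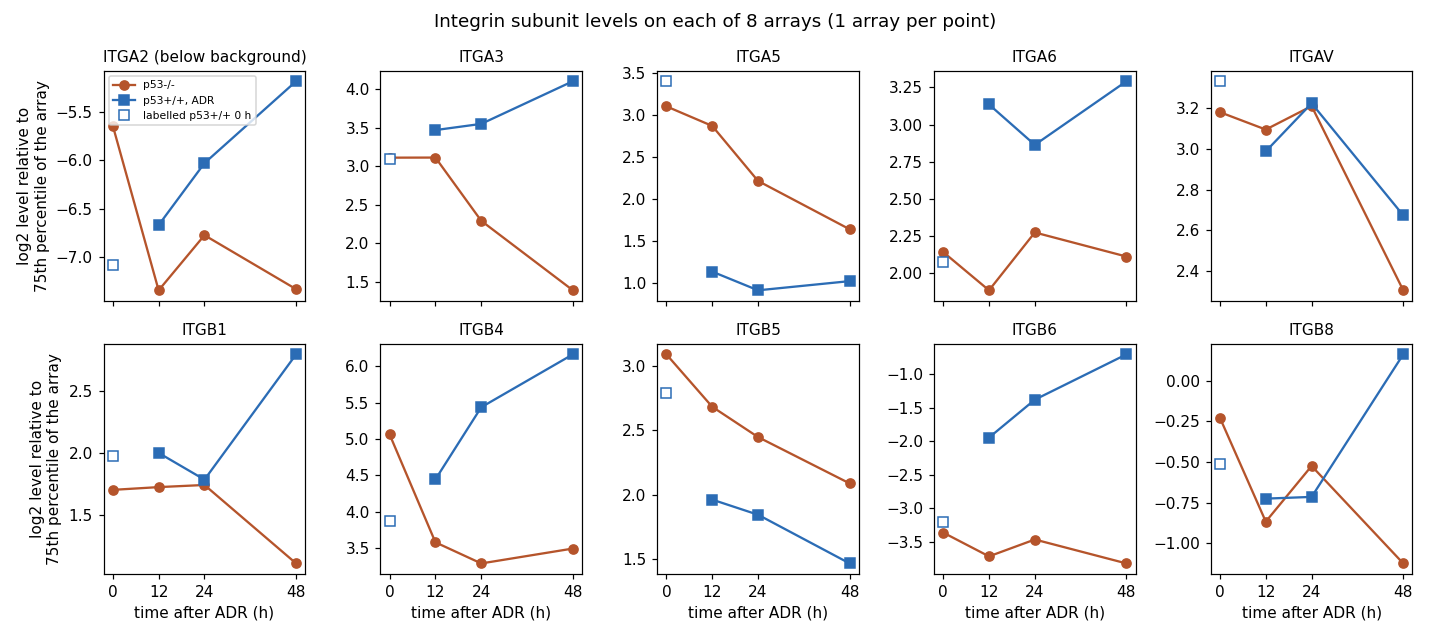
Level of each of the 10 members on each array, as log2 processed signal relative to the 75th percentile of the array (vertical axes, each with its own range), against time after ADR in hours. Circles are p53-/- arrays, filled squares treated p53+/+ arrays and the open square the array labelled p53+/+ 0 h, with 1 array a point and no error bar; in the ITGB6 panel the treated p53+/+ arrays sit between -1.95 and -0.71, above all other arrays. The ITGA2 probe was below background throughout.

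Among the laminin receptor chains, ITGB4 had levels of 5.06, 3.58, 3.29 and 3.49 at 0, 12, 24 and 48 h in p53-/- cells. The array labelled p53+/+ 0 h read 3.87, and p53+/+ cells had 4.45, 5.44 and 6.17 at 12, 24 and 48 h. The treated arrays of the genotypes did not overlap, here or in some members below, but the share of all probes that separate this way was not counted. The gap widened from 12 to 48 h. It was 0.87, 2.15 and 2.67 at 12, 24 and 48 h, a mean of 1.90 (SE 0.42, limma adjusted p = 0.0271, 3.72-fold) with p53+/+ cells higher at 3 of 3 times. The adjusted p lay between 0.00761 and 0.236 over the alternatives, and ITGB4 lost its call without the 24 h arrays (0.236) and without the 48 h arrays (0.0885). ITGB4 was also the only member at least 2-fold away from 0 h at all 3 times in p53-/- cells, with changes of -1.49, -1.78 and -1.57. The same rule took 1.84% of all probes as lower and 2.64% as higher in p53-/- cells. Between the pair of 0 h arrays ITGB4 differed by -1.20, the p53-/- array being the higher.

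ITGA6, the alpha chain that joins ITGB4 in hemidesmosomes, stayed between 1.88 and 2.27 on the 4 p53-/- arrays. The array labelled p53+/+ 0 h read 2.07, and p53+/+ cells had 3.14, 2.86 and 3.29 at 12, 24 and 48 h. Each treated p53+/+ array was thus above all 5 others, with no order over time. The differences of 1.25, 0.59 and 1.18 gave a mean of 1.01 (SE 0.21, limma adjusted p = 0.0206, 2.01-fold). Over the alternatives the adjusted p was 0.00559 to 0.143; the call was lost with no scaling (0.143) and when the 12 h (0.118), 24 h (0.140) or 48 h (0.0969) arrays were left out. ITGA6 has a second probe, in 1 spot, which was well above background on all 8 arrays and gave a mean difference of 1.39 (SE 0.33, limma adjusted p = 0.0326). ITGA6 was the only member with more than 1 probe.

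ITGA3, which makes a laminin receptor with ITGB1, had levels of 3.11, 3.11, 2.29 and 1.39 at 0, 12, 24 and 48 h in p53-/- cells. In p53+/+ cells it read 3.09 on the array labelled 0 h and 3.47, 3.55 and 4.11 afterwards. The arrays of treated p53+/+ cells all lay above those of p53-/- cells, and the difference went from 0.36 at 12 h to 1.26 at 24 h and 2.71 at 48 h. Its mean of 1.44 (SE 0.45) did not pass the test (limma adjusted p = 0.0702). With normexp background correction it did (0.0247).

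ITGB1, the beta chain shared by the ITGA2, ITGA3 and ITGA5 receptors, was nearly level until 48 h. It had 1.70, 1.72, 1.74 and 1.11 in p53-/- cells at the 4 times, against 2.00, 1.78 and 2.80 in treated p53+/+ cells, with 1.98 on the array labelled p53+/+ 0 h. The difference was 0.28 and 0.04 at 12 and 24 h and 1.69 at 48 h. Its mean of 0.67 (SE 0.33, limma adjusted p = 0.205) thus rested on the 48 h arrays. Without the p53+/+ 48 h array, the one that lacked spike-in signal, the mean was 0.37. The treated groups were barely apart, with 1.74 and 1.78 on their nearest arrays. At 24 h the difference was negative with median (-0.05), quantile (-0.01), normexp (-0.04) and no scaling (-0.44).

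ITGA5, the alpha chain of the main fibronectin receptor, was lower at each time after ADR than at 0 h in p53-/- cells, and lower still in treated p53+/+ cells. Its levels were 3.10, 2.87, 2.22 and 1.64 in p53-/- cells from 0 to 48 h, against 1.14, 0.92 and 1.03 in treated p53+/+ cells, with 3.40 on the array labelled p53+/+ 0 h. The treated groups did not overlap, but the gap narrowed with time as the p53-/- level went down. It was -1.73, -1.30 and -0.61 at 12, 24 and 48 h, a mean of -1.21 (SE 0.32, limma adjusted p = 0.0454, 2.32-fold). Over the alternatives the adjusted p was 0.00962 to 0.280. The call was lost with time point as a block (0.0513), without the p53+/+ 48 h array (0.0940) and when the 12 h (0.120), 24 h (0.280) or 48 h (0.0533) arrays were left out.

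**Figure D2:**
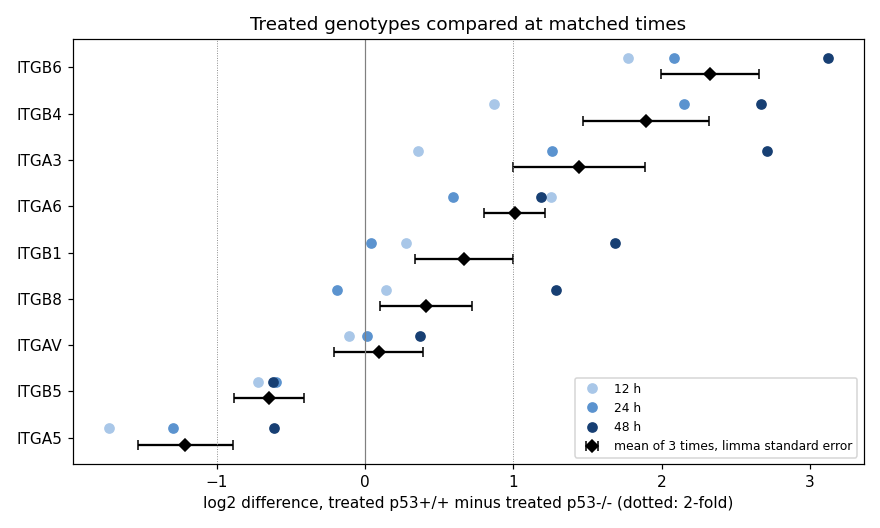
Log2 difference between treated p53+/+ and treated p53-/- cells for the 9 members measured (horizontal axis; dotted lines mark 2-fold). Circles are the differences at 12, 24 and 48 h, 1 pair of arrays each, and diamonds their mean with the limma standard error; ITGB6 lies beyond 2-fold at all 3 times and ITGB1 and ITGB8 do so at 48 h alone.

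ITGB6 differed most among the members that pair with ITGAV. Its receptor releases TGF-beta from the latent complex, and it is usually low in resting epithelium. Its levels were -3.36, -3.72, -3.47 and -3.83 in p53-/- cells from 0 to 48 h, against -1.95, -1.38 and -0.71 in treated p53+/+ cells, with -3.21 on the array labelled p53+/+ 0 h. The 3 treated p53+/+ arrays lay above all 5 others. The differences were 1.77, 2.09 and 3.12, with a mean of 2.33 (SE 0.33, limma adjusted p = 0.00659, 5.02-fold). ITGB6 was the only member at least 2-fold apart between treated genotypes at all 3 times, a size that 5.71% of all probes reached as higher and 4.58% as lower. The size of the ITGB6 difference moved with the processing, from 1.70 with normexp and 1.73 with no scaling to 2.60 without the 12 h arrays. Its adjusted p was 0.00174 to 0.112 over the alternatives, and the call was lost without the 24 h arrays (0.112).

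ITGB5, a vitronectin receptor chain, went from 3.09 at 0 h to 2.68, 2.45 and 2.09 in p53-/- cells. The array labelled p53+/+ 0 h had 2.79, and treated p53+/+ cells 1.96, 1.84 and 1.47. The level was lower at each later time in both genotypes, and p53+/+ cells were lower at 3 of 3 times by a steady margin. The differences of -0.72, -0.60 and -0.62 gave a mean of -0.65 (SE 0.24) that did not pass (limma adjusted p = 0.109). It passed with no scaling (0.0190) and with normexp (0.0247).

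ITGAV itself, the common alpha chain of these receptors, had 3.18, 3.10, 3.21 and 2.30 in p53-/- cells and 2.99, 3.23 and 2.67 in treated p53+/+ cells, with 3.33 on the array labelled p53+/+ 0 h. The treated groups overlapped, and the mean difference was 0.09 (SE 0.30, limma adjusted p = 0.867). ITGB8, another receptor chain for latent TGF-beta, had -0.23, -0.87, -0.52 and -1.13 in p53-/- cells and -0.73, -0.72 and 0.16 in treated p53+/+ cells, with -0.51 on the array labelled p53+/+ 0 h. Its groups overlapped as well, and its mean difference of 0.41 (SE 0.31, limma adjusted p = 0.396) came from the 48 h arrays. Without the p53+/+ 48 h array, which lacked spike-in signal, the ITGB8 difference was 0.12. The sign of the difference turned with no scaling for ITGAV (-0.51) and ITGB8 (-0.18), and with median scaling for ITGAV (-0.04). It also turned without the 48 h arrays for both.

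**Figure D3:**
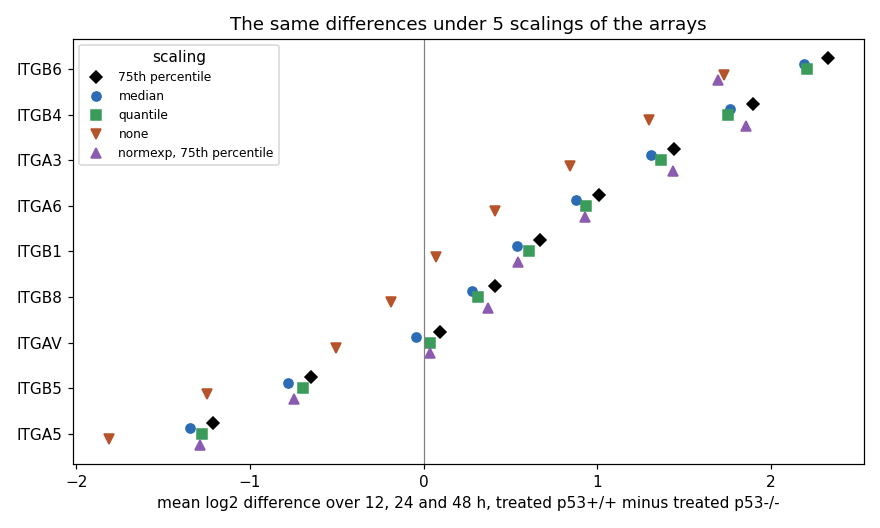
Mean log2 difference over 12, 24 and 48 h between treated p53+/+ and treated p53-/- cells (horizontal axis) for the 9 members under 5 scalings of the arrays (symbols), with no error bars. ITGA5 stays below 0 and ITGA6, ITGB4 and ITGB6 above 0 under each, whereas ITGAV and ITGB8 cross 0 with no scaling.

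Measured from the array labelled p53+/+ 0 h, 2 members were at least 2-fold away at all 3 times in p53+/+ cells. ITGB6 was higher by 1.26, 1.83 and 2.51, and 7.94% of all probes were higher by that rule. ITGA5 was lower, with changes of -2.26, -2.48 and -2.37, and 5.78% of probes were lower. Both values start from the array whose label is in doubt. When the p53-/- 0 h array was the baseline, ITGA5, ITGB5 and ITGB6 met the rule. The test of whether the change from 0 h differed between genotypes called 0 of the 9 members in limma and 1.69% of all probes. At an unadjusted p under 0.05 it took 3 members, ITGA6, ITGB4 and ITGB6.

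Sequence before the start of transcription was read for 3 of the 4 called members, as 250 bases from RefSeq on GRCh38.p14, in the direction of transcription. They are shown so that the members higher (ITGB6, ITGA6) and lower (ITGA5) in treated p53+/+ cells can be set side by side. Capitals mark the core of an Sp1 site, GGGCGG or its reverse complement CCGCCC. The ITGB6 window lies at chr2:160200273-160200522 on the minus strand, the ITGA6 window at chr2:172427086-172427335 on the plus strand, and the ITGA5 window at chr12:54419267-54419516 on the minus strand.
ITGB6: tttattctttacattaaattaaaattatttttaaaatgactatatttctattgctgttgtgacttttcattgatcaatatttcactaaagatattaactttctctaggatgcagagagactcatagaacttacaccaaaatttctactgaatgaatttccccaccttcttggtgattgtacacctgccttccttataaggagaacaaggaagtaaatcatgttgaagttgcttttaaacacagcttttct
ITGA6: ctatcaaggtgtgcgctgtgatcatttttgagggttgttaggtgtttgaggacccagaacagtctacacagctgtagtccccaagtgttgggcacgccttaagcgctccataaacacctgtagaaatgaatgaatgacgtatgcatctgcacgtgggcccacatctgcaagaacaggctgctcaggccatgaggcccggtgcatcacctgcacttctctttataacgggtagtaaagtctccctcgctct
ITGA5: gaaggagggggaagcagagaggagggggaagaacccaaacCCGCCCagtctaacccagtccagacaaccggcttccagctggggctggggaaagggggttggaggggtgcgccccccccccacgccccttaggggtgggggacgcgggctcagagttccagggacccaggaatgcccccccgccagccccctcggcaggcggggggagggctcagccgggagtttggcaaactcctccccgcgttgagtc
G and C made up 30.0% of the ITGB6 window, 50.8% of the ITGA6 window and 70.0% of the ITGA5 window. Over 13 such windows listed for 8 members (ITGA3 and ITGB4 had none listed), the Sp1 core was in 7 windows of 6 members, and in 42.6% of 35116 windows of all genes. The decamer of p53 response elements and the AP-1 site TGACTCA, both searched on both strands, were in 0 of the 13 windows, and in 5.57% and 4.20% of all windows. For ITGA6 the window farther upstream of the 2 listed is printed. The other, which follows it directly, held 3 Sp1 cores and was 71.6% G and C, so the order of G and C by direction depends on the window. These counts describe letters in short windows and say nothing of binding.

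The counts for the lists below stand beside 10.6% of all probes called higher and 7.4% called lower in treated p53+/+ cells. Of the other integrin chains, 9 of 13 alpha chains were tested, and 2 were higher and 2 lower in treated p53+/+ cells. ITGAM, a leukocyte integrin chain, had -1.75, -1.79 and -3.76 in treated p53+/+ cells and was not well above background on any other array. It was higher in treated p53+/+ cells (limma adjusted p = 0.0121). The size was 8.50-fold against a background limit, the lowest level read as well above background on the dim arrays. Over 9 alternatives the measured log2 difference ran from 1.72 to 3.89. ITGA9, chosen after its values were seen, was higher by 1.16, a call that 4 of 9 alternatives kept. ITGA4 was not well above background in treated p53+/+ cells and was 1.70-fold lower against that limit. Over the 9 alternatives its difference ran from -2.47 to -0.24. ITGA7, a laminin receptor chain, was lower, at a difference of -1.66. Among the other beta chains, ITGB3, a partner of ITGAV in the vitronectin receptor, had -3.23, -2.60 and -2.66 in treated p53-/- cells. It was not well above background in treated p53+/+ cells, where it was lower (limma adjusted p = 0.000917). The size was 3.49-fold against the background limit, and the difference ran from -3.70 to -0.94 over the alternatives. ITGB3 was called under each of 9 alternatives. For ITGB2 and ITGB7, chains found mostly on leukocytes, the differences of 0.33 and -0.09 did not pass.

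Of 19 genes for proteins that bind integrin tails or link them to actin, 2 were higher and 5 lower in treated p53+/+ cells. The lower genes named by the rule were LIMS2 (-4.38), PARVB (-2.59), FERMT2 (-1.92) and TNS1 (-1.77), which encode PINCH-2, beta-parvin, kindlin-2 and tensin-1. In treated p53+/+ cells LIMS2 was well above background on 1 array and PARVB on 2, so both sizes are uncertain: over 9 alternatives they ran from -4.98 to -2.35 and from -3.21 to -1.71. The higher genes, FERMT1 for kindlin-1 (1.10) and PXN for paxillin (1.13), and the fifth lower gene, TNS3 (-1.18), were chosen after their values were seen. Of 9 alternatives, 2 kept the call of FERMT1 (limma adjusted p = 0.04999), 5 that of PXN and 7 that of TNS3. With no scaling the same list had 0 higher and 9 lower. Of 14 kinases and docking proteins, 3 were higher and 1 lower. SHC1, an adaptor, was higher by 1.33 and NEDD9, a docking protein of focal adhesions, lower (-1.38), and SRC (1.03) and FYN (0.92), chosen after their values were seen, were higher, with 5 of 9 alternatives keeping each call. With no scaling that list had 1 higher and 4 lower. Of 4 inactivators tested, 1 was higher, FLNA (0.98), also chosen after its values were seen, and 1 of 9 alternatives, normexp, kept that call. With no scaling 0 were higher and 3 lower.

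Of 5 hemidesmosome partners 1 was called: COL17A1, a transmembrane collagen that joins ITGA6 and ITGB4 there. It had -0.72, -0.47 and 0.23 in treated p53-/- cells and 2.89, 3.69 and 3.94 in treated p53+/+ cells, higher by 3.83 (SE 0.37, limma adjusted p = 0.00179). Of 19 matrix ligands tested, 4 were higher and 6 lower. LAMA3, a chain of laminin-332, the ligand of ITGA6 with ITGB4 and of ITGA3 with ITGB1, was higher by 2.86. LAMB3, a chain of the same laminin, was chosen after its values were seen and was higher by 1.05 (called in 4 of 9 alternatives), and LAMA1, the alpha chain of another laminin, by 2.48.

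FN1, which encodes fibronectin, the ligand of ITGA5 with ITGB1, had 1.42, 1.29 and 1.03 in treated p53-/- cells and -1.16, -2.09 and -2.43 in treated p53+/+ cells. Its difference was -3.14 (SE 0.35, limma adjusted p = 0.00284). THBS1, for thrombospondin-1, was lower (-1.86). COL1A1 and FBN1 were not well above background in treated p53+/+ cells and were 2.85-fold and 1.54-fold lower against the background limit. Over 9 alternatives their differences ran from -3.22 to -0.64 and from -3.13 to -0.36. The other lower ligands, TNC and SPP1, were chosen after their values were seen; TNC had a difference of -1.73, and SPP1 was well above background on 1 treated array, with a sign that turned under normexp. With no scaling the ligands had 2 higher and 9 lower. Of 5 genes for latent TGF-beta and its binding partners, TGFB2 was lower, at -3.73 (SE 0.48, limma adjusted p = 0.00451), with 1 treated p53+/+ array well above background. Since the other treated p53+/+ arrays were not, the size is uncertain, and over 9 alternatives it ran from -4.33 to -1.82.

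Over these 8 lists, 29 of 78 genes tested were called in either direction, beside 10.6% of all probes called higher and 7.4% called lower. The lists were chosen with earlier results of these data known, and some list counts are near those shares. Of the 29 genes, 28 kept their sign under each of 9 alternatives. The block on time point kept 25 calls, no scaling kept 21, and 24 were kept without the p53+/+ 48 h array. Without the 24 h arrays 2 were kept, LAMA3 and ITGB3.

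**Figure D4:**
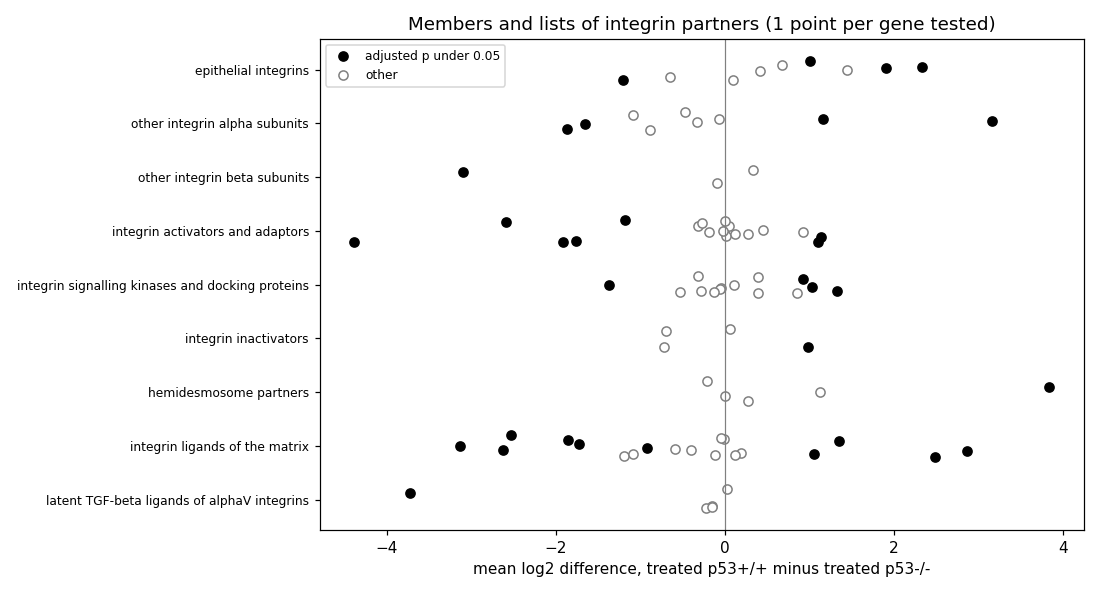
Mean log2 difference between treated p53+/+ and treated p53-/- cells (horizontal axis) for each gene tested among the members and 8 lists of integrin partners (vertical axis, 1 point per gene, spread vertically within a list for legibility). Filled points have an adjusted p under 0.05 in limma, as 4 of the 9 members do; measured values are plotted also where a group was below background.

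Markers of cell types also differed between the same arrays, beside 10.6% of all probes called higher and 7.4% called lower. Of 7 basal epithelial markers 5 were higher in treated p53+/+ cells and 0 lower, and their summed level, on a linear scale relative to the 75th percentile, was 444 to 607, against 224 to 277 in treated p53-/- cells. TP63, a defining basal marker, was well above background on 3 of 8 arrays. Of 5 general epithelial markers 2 were higher, CDH1 by 3.98 and EPCAM by 2.81, with sums of 70.8 to 101 against 39.6 to 64.9. Of 4 mesenchymal markers tested 3 were lower, and the sums were 101 to 134 against 166 to 175. Of those called, COL1A1 and PDGFRB were well above background on 0 treated p53+/+ arrays, and the sign of PDGFRB turned under 1 of 9 alternatives. THY1, also on that list, was below background on all 8 arrays. Of 4 leukocyte markers 1 was higher, ITGAM, with sums of 0.892 to 1.77 against 1.38 to 1.70. Of 3 endothelial markers 1 was lower, PECAM1, with sums of 0.160 to 0.211 against 0.330 to 0.473. PECAM1 was well above background on 0 treated p53+/+ arrays. A sum adds levels of unlike probes and rests mostly on the brightest. For the mesenchymal list that was VIM, for the general epithelial list KRT18 and for the leukocyte list CD68. Their differences of -0.54, 0.64 and -0.41 did not pass (limma adjusted p = 0.0935, 0.136 and 0.378), so these sums say little of the markers called. LAMB3, COL1A1 and ITGAM were already counted in the lists above, so their calls are not separate results. The part of these markers in the integrin values was not tested.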

How the data were processed

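RNA of MCF10A cells was labelled with Cy3 and measured on SurePrint G3 Human GE arrays from Agilent in a single colour, 1 for each genotype and time. The authors deposited the output of Agilent Feature Extraction 10.7.3.1 (per the labels), in which the processed signal is an intensity on a linear scale, already corrected for background by that software; no scaling between arrays is given in the sources used here. A table of the series matched the same values (503808 of 503808 equal). Per the file headers the array design refers to hg19.

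Of 58717 spots that were not controls, those marked as uneven or as outliers were dropped, which left 42391 of 42405 probes. Each array was scaled to its 75th percentile on the log2 scale, and the spots of a probe were averaged. Probes were named by accession through RefSeq genes of GRCh38.p14, which named 27227 probes (64.2%). Sequences and coordinates are from RefSeq on GRCh38.p14, not from the array design. The probe brightest on average over 8 arrays stood for a gene.

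The fits took the 28947 probes that 1 array or more showed well above background, with limma 3.58.1 (lmFit and eBayes, R 4.3.3). They were made on genotype over the 6 treated arrays and on genotype, treatment and their interaction over 8, each with 4 residual degrees of freedom. The threshold was a Benjamini-Hochberg adjusted p of 0.05. A change of at least 2-fold the same way at 12, 24 and 48 h was counted with no test. A bound ("at least") sets the bright group's mean against the dim group's lowest level well above background. Genes named were the 10 members, CDKN1A as a check of the labels, ITGB2, ITGB3 and ITGB7, and up to 4 per list and direction that were called and 2-fold apart at all 3 times; not every gene under this rule is reported here. The members and lists were chosen with earlier results of these data known. Alternatives were quantile, median and no scaling, normexp (offset 50), the filter on dim probes, the mean of a gene's probes, a 3-fold rule, 2 of 3 times, each time left out, time as a block, the p53-/- 0 h array as baseline and, added after the data were seen, the fit without the p53+/+ 48 h array. Other tools were pandas 2.3.3, numpy 2.4.6, matplotlib 3.10.9 and Python 3.11.15.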

Additional observations from a re-analysis of the deposited data

Results flagged for a closer look

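For ITGB4 and ITGB6 the change from 0 h had opposite signs in the genotypes at all 3 times. In p53-/- cells ITGB4 changed by -1.49, -1.78 and -1.57 at 12, 24 and 48 h on the log2 scale, and from the array labelled p53+/+ 0 h by 0.58, 1.57 and 2.30. For ITGB6 the changes in p53-/- cells were -0.35, -0.10 and -0.46, beside 1.26, 1.83 and 2.51 when measured from the array labelled p53+/+ 0 h. The interaction of genotype and ADR in limma did not pass for ITGB4 (3.09, SE 0.85, adjusted p = 0.134) or for ITGB6 (2.17, SE 0.66, adjusted p = 0.165). For ITGB6 the changes in p53-/- cells were within 3 times the technical SD of a difference (0.19), and all p53+/+ changes start from the array whose label is in doubt.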

How the results depend on the processing

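Against 5201 probes called between treated genotypes, no scaling gave 9393, normexp 9894 and no filter on dim probes 12536, and leaving out a time point 292 to 2670. Against 4 members called, leaving out a time point gave 0 to 2, and the other alternatives 3 to 6. Against 488 probes with an interaction, no scaling gave 1296, normexp 1251 and time point as a block 60, and leaving out a time point 0 to 42 (with 0 calls, 3063 probes without 24 h and 5274 without 48 h had an unadjusted limma p under 0.05). No alternative gave a member with an interaction in limma, where 2 to 4 had an unadjusted p under 0.05. The 1 member changed 2-fold in p53-/- cells became 0 under the 3-fold rule. The 2 changed in p53+/+ cells became 1 under normexp, 1 under the 3-fold rule and 4 with at least 2 of 3 time points. The 1 member 2-fold apart between treated genotypes at all times became 3 with no scaling, 5 with at least 2 of 3 time points and 2 to 3 with a time point left out. The ITGAV difference reversed to -0.042 with median scaling and -0.51 with no scaling, and was -0.047 (without 48 h) to 0.19 with a time point left out. That of ITGB8 reversed to -0.18 with no scaling, and was -0.024 (without 48 h) to 0.72 with a time point left out. The cause was not tested. Pairing the treated arrays by time point, as a block, called 4451 probes and 3 members in limma; of the members it changed the call of ITGA5 alone (adjusted p = 0.0513). With 1 array per condition, 1 array can set a value, and levels near background, such as those of ITGA2, ITGA4 and ITGB3, give no firm size.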
